A study of Mus musculus with 20 samples.

Results

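The regulatory DNA of 10 transcription factor genes of naive pluripotency, Pou5f1, Klf2, Klf4, Klf5, Esrrb, Zfp42, Tfcp2l1, Prdm14, Tbx3 and Sall4, was followed through 10 lists of accessible chromatin peaks. A locus was the gene body with 50 kb on either side on the mouse build mm10, and the members were chosen by name. They are 10 of the 21900 protein-coding genes in the RefSeq table used. Peaks of all lists that overlapped by at least 1 bp were merged into regions, which gave 398 regions at the loci of 222457 in all. The list from cells with the wild-type transgene (WT) held 324 peaks at the loci of 171719 in all.

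Omni-ATAC-seq, which reads out open DNA by where a transposase can cut and tag it, was run on E14Tg2a mouse embryonic stem cells of strain 129/Ola and lines made from them. In every line the endogenous CTCF carries an auxin-inducible degron, and a stable doxycycline-inducible transgene supplies either WT CTCF or CTCF with 1 substitution: R339Q, R342C, S354F, K365T, R377C, R377H, Q418R, R448Q or H455R. For 2 days all 20 samples were given doxycycline at 1 µg/ml and the auxin indole-3-acetic acid at 500 µM, in feeder-free medium with leukemia inhibitory factor (LIF), CHIR99021 and the MEK inhibitor PD0325901. The study asked how each mutant compares with the WT transgene. WT denotes the transgene and not untreated cells. The 2 replicates of each genotype were combined by the authors into 1 list, so the replicate spread is unknown, no difference between genotypes could be tested, and what follows is a description of 10 lists. No source used here says whether a genotype is 1 clone or several.

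Naive pluripotency is the state of the inner cell mass, kept in culture by LIF together with inhibition of MEK and GSK3. Its transcription factors bind their own and each other's enhancers and so form a network in which several members can stand in for one another. CTCF binds DNA through its zinc fingers and, with cohesin, anchors chromatin loops that help to bring enhancers to promoters or keep them apart. ATAC peaks mark accessible DNA and do not tell which factor is bound or whether a gene is transcribed.

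The promoters below show what sequence lies at the gene starts whose peaks are described. They come from the RefSeq promoter table on GRCm38.p6, which held 6 of the 10 members with 8 listed starts. Klf5, Prdm14, Tbx3 and Sall4 were not matched. Each line is the 250 bases before the start, 5′ to 3′ on the gene's strand. Capitals mark matches, on either strand, to part of the CTCF core CAGNGGGC, the octamer ATGCAAAT bound by POU factors, the Esrrb motif TCAAGGTCA, the Klf motif CCNCACCC, the GC box GGGCGG or the TATA box TATAAA. Overlapping matches run together.
Pou5f1, first listed start, chr17:35505782-35506031, plus strand: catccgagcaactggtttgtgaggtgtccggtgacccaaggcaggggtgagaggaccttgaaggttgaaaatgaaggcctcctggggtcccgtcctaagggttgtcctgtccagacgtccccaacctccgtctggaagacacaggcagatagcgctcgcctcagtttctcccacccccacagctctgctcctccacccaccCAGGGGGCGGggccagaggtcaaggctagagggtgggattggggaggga
Klf2, chr8:72318812-72319061, plus strand: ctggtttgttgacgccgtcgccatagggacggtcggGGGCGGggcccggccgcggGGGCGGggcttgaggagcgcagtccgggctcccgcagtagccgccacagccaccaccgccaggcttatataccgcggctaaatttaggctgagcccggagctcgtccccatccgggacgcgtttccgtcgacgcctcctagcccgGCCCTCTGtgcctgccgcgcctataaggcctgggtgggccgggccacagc
Klf4, chr4:55532476-55532725, minus strand: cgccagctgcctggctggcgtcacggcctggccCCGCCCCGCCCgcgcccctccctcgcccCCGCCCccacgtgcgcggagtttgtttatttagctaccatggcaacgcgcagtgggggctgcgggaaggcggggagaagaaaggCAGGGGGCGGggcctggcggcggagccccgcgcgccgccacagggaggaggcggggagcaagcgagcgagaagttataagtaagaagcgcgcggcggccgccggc
Esrrb, first listed start, chr12:86360867-86361116, plus strand: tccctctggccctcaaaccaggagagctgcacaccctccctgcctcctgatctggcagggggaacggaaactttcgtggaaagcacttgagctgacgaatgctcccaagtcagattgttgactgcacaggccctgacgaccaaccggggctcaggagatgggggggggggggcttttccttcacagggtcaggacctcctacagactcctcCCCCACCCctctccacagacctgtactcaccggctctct
Zfp42, chr8:43307010-43307259, minus strand: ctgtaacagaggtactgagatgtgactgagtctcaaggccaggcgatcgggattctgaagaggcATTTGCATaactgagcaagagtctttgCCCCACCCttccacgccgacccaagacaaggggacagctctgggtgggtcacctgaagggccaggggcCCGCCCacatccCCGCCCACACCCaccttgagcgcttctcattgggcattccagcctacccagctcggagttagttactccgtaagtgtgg

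The CTCF letters occurred in 7.68% of all 32851 promoters of this length and in the printed promoters of Pou5f1, Klf2 and Klf4. In Pou5f1 the match CAGGGGGC lay 49 to 42 bases before the start and overlapped a GC box. In Klf4 the same 8 letters lay 105 to 98 bases before the start and again ran into a GC box, and in Klf2 the match was on the opposite strand, 50 to 43 bases before the start. GC boxes were held by 32.7% of all promoters and the Klf letters by 14.9%. The Klf letters appeared at both listed starts of Esrrb and in 2 places before Zfp42. Zfp42 also held the octamer, 186 to 179 bases before its start on the opposite strand, which 1.6% of all promoters held. The Esrrb motif (0.387% of all promoters) matched none of the 8. Tfcp2l1 had the TATA letters 28 to 23 bases before its start (12.4% of all promoters). These matches are letters and not measured binding sites.

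The loci were dense in accessible sites. In the WT list they held between 20.9 (Klf4) and 29.8 (Tbx3) peaks per 100 kb, against a median of 11.4 over all protein-coding genes with the same flanks. Of the 324 WT peaks, 20 lay within 1 kb of an annotated end of a member, called gene-end peaks since the gene table gives no strand, and 11 near an end of another protein-coding gene. The other 293 were called putative enhancers from position alone: 180 intergenic, 77 inside the member and 36 inside another gene. Esrrb, the longest member, had the most WT peaks (60) and Klf4 the fewest (22).

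Each peak carries 1 value from the authors, read as the MACS2 fold enrichment of the peak over expected coverage. Its percentile is its rank within its own list, where 100 is strongest. The median fold was 4.69 in WT, the lowest of the 10 lists, and 4.85 (R339Q) to 5.13 (K365T) in the mutants. A mutant fold above WT can thus occur without a higher rank. Lists differed in length, from 121032 peaks (R339Q) to 171719 (WT), and in depth: the background coverage read from the steps of the fold values ran from 3.49 (K365T) to 4.66 (H455R) in 8 mutants, with 5.45 in R448Q and 5.96 in WT. WT was thus the longest and the deepest list, and the part of depth in the weak peaks missing from mutants was not tested. For regions in all 10 lists a shared percentile, the rank among the 81151 such regions, was computed as well. The library codes in the peak names were consecutive in 8 lists but 28 numbers apart in WT and 42 apart in K365T, and what this marks cannot be told apart from genotype. The share of a list's peaks on chromosome 1, which carries Tfcp2l1 and Prdm14, was shifted by 0.22 (K365T) and 0.31 (R448Q) on the log2 scale from the median of the other lists, and that on chromosome 8, which carries Klf2 and Zfp42, by 0.26 (H455R) and 0.23 (R448Q). As a check of cell identity, all 6 embryonic stem cell markers had a gene-end peak in every list and none of the 4 two-cell-like markers had one in any. The loci of these 4 held only 2 WT peaks in all, so their lack of a gene-end peak says little on identity. Among the stem cell markers, Pou5f1, Klf4, Esrrb and Zfp42 are members. Of the other markers, 5 of 6 fibroblast, 3 of 5 primitive endoderm and 5 of 5 trophoblast genes had one in WT, and 3 to 5, 2 to 3 and 2 to 5 in the mutants. Open promoters of such genes are no measure of those cells, and their part in the results was not tested.

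Every member had a gene-end peak in all 10 lists, as did 64.7% of all protein-coding genes and 91.5% of those with such a peak in WT. The strongest 20% of the WT list held 31 of the 324 locus peaks (9.57%), and none was missing from a mutant. Locus peaks were thus weaker than the list, with a median percentile of 37.4 in WT. Genome-wide only 2.38% of WT peaks of that strength were missing from 1 or more, so a count of 0 among 31 does not set the loci apart. The strongest missing peak, chr8:43333540-43333864 near Zfp42, stood at percentile 71.1 in WT with a fold of 6.79 and was absent from Q418R only. Of the 324 WT peaks, 179 (55.2%) were found in all 9 mutants, against 48.5% of all WT peaks. With only the stronger 50% of each list kept, that order turned, with 47.9% at the loci against 50.0%. The map of the loci shows that the gaps lie among the weak peaks.

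**Figure D1:**
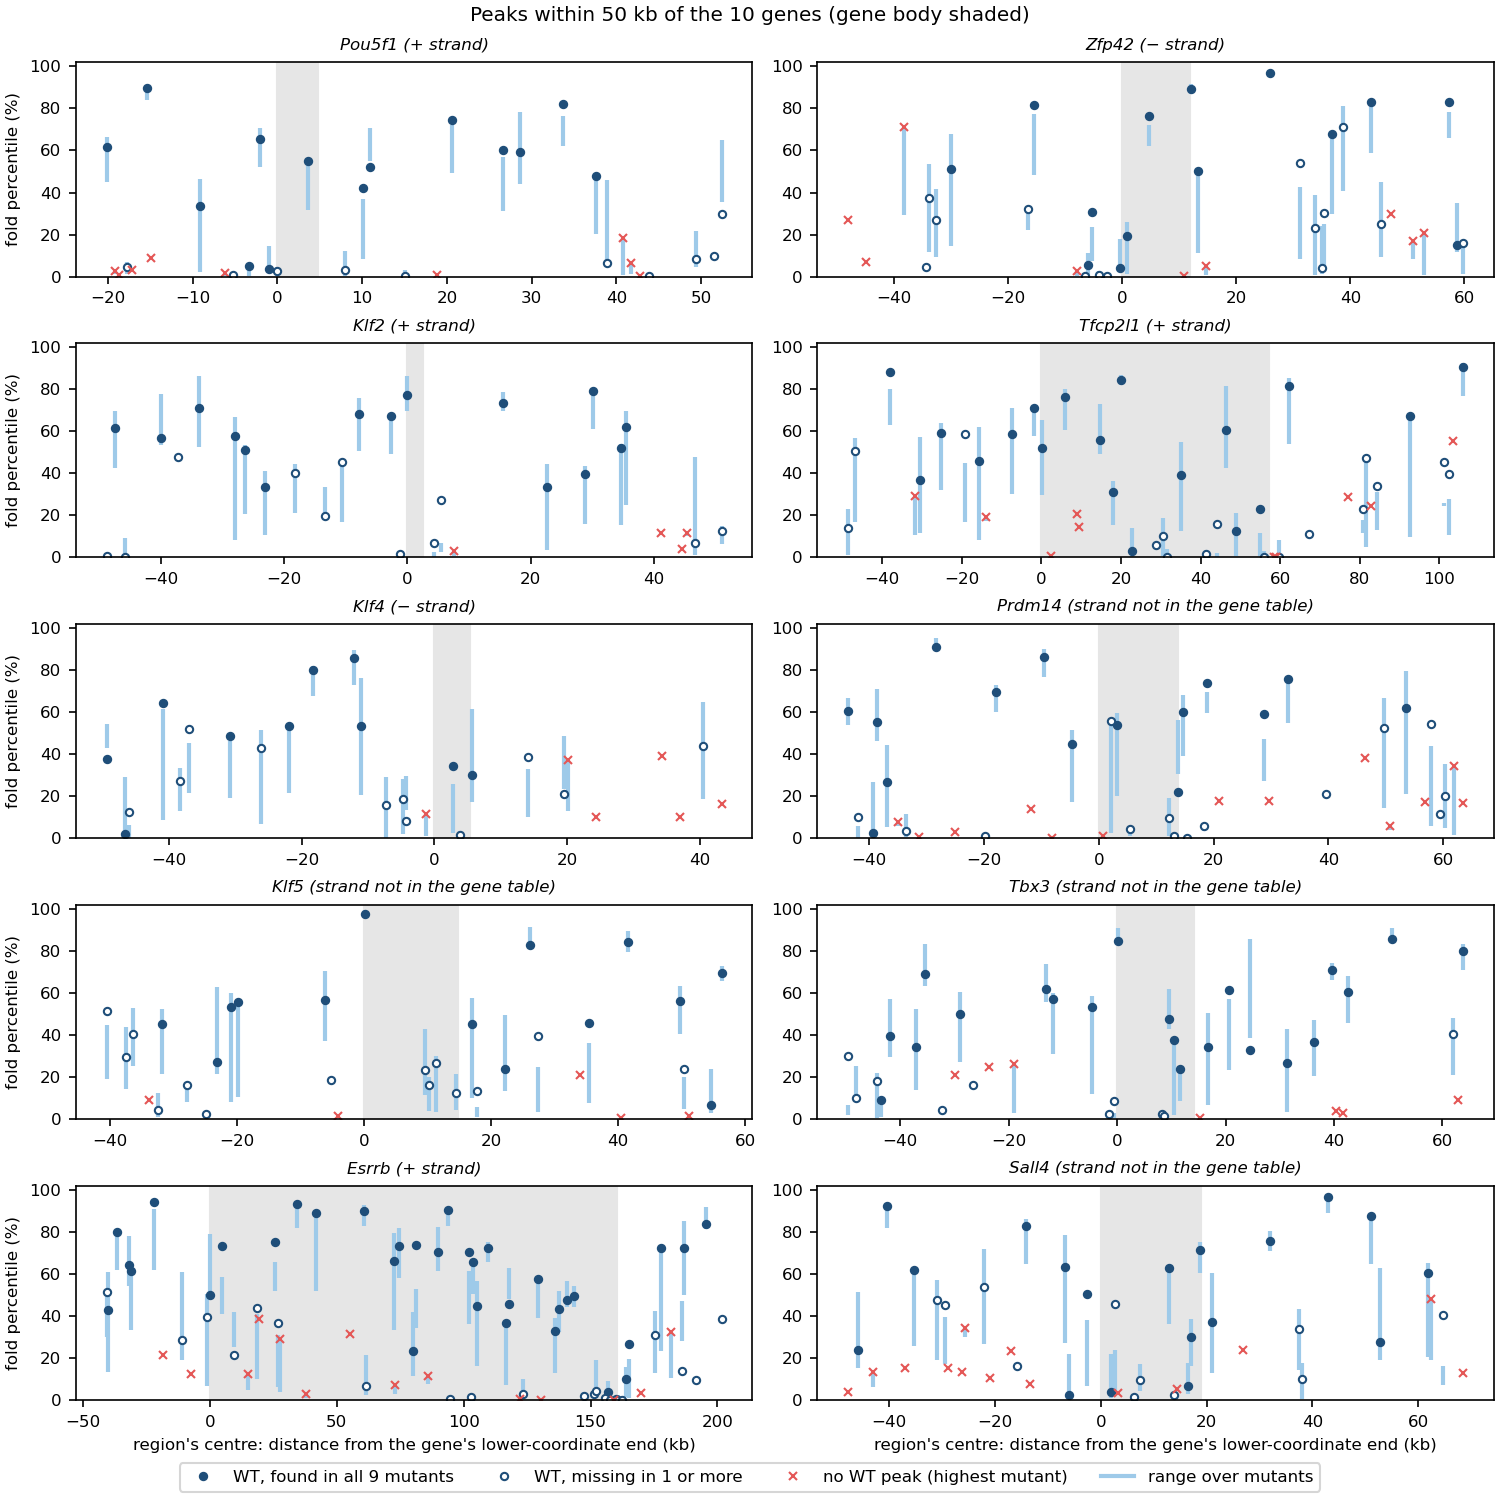
Accessible regions at each of the 10 loci. The x axis is the distance of a region's centre from the gene's lower-coordinate end (kb), the y axis the fold percentile within its list (%), dots are WT (open where missing from 1 or more mutants), bars the range over the mutants and crosses the strongest mutant value of a region without a WT peak. No open dot stands above percentile 71.1, and above it all WT dots are filled.

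Pou5f1 encodes Oct4, the POU factor without which pluripotency is lost. At its first listed start the lists differed in whether a peak was listed. A narrow WT peak, chr17:35505825-35506036, covered the first listed start with a fold of 2.36 (percentile 2.53). It was found in S354F, K365T, R377C, R377H and R448Q, at percentiles of 0.239 to 4.43, and absent from R339Q, R342C, Q418R and H455R. It covered 82.8% of the promoter printed above in WT and in R448Q and 0% in those 4 lists. Directly upstream, the merged region chr17:35504554-35505466 was in all 10 lists, with folds of 2.47 in WT and 2.51 (R342C) to 3.36 (K365T) in the mutants and a mutant median of 2.83. In percentiles this was 3.78 in WT and 1.86 (R342C), 5.73 and 14.8 (K365T) in the mutants, low in every list. The upstream WT peak was wide (848 bp, width percentile 87.1). Near the other end of the gene, values were higher. The region chr17:35509301-35509955 inside Pou5f1 stood at percentile 55.1 in WT and 31.7 (R377C), 37.5 and 54.9 (Q418R) in the mutants. Its WT peak ended more than 1 kb from the gene end, so it was not counted as a gene-end peak, while in R342C, R377C and R448Q the peak came within 1 kb and was the strongest gene-end peak of those lists.

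Further from the Pou5f1 start the values were higher. A region that ends 1.6 kb before the gene, chr17:35503598-35504442, had a fold of 6.06 in WT (percentile 65.5), and mutant folds ran from 5.25 (K365T) through a median of 6.4 to 7.04 (H455R). WT lay inside that range. The strongest putative enhancer of the locus, chr17:35490286-35490933, lies 15.1 kb before the gene. Its fold was 11.3 in WT, with 9.75 (R377C), 10.6 and 11.3 (R342C) as the lowest, median and highest of the mutants, so the lists barely differed. The gene table holds 7 Pou5f1 pseudogenes, and no source used here says how reads with several placements were treated.

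Klf2, Klf4 and Klf5 encode Krüppel-like zinc finger factors with overlapping roles in self-renewal. The peak over the Klf2 start, chr8:72318627-72319389, had a fold of 7.87 in WT, and mutant folds of 7.09 (Q418R), 9.16 and 10.4 (R377C) as lowest, median and highest. Q418R was thus the only mutant below WT in fold. At Klf4, chr4:55532142-55533570 had a fold of 3.64 in WT and 3.51 (K365T), 4.68 and 6.13 (R448Q) in the mutants. In 8 of 9 mutants the fold at the Klf4 start was above WT, and only K365T lay below. The Klf5 peak chr14:99298261-99299401 was among the strongest of every list, at percentile 97.8 in WT and 97.7 (R448Q), 98.4 and 99.4 (R377H) in the mutants.

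The Klf enhancers were listed everywhere too. The strongest one of Klf4, chr4:55514676-55515460, 11.7 kb from the gene, had a fold of 9.92 in WT and 7.03 (R339Q), 10.7 and 12.3 (R448Q) in the mutants. In the region next to it, chr4:55515784-55516414, R339Q was instead the highest of the mutants, with a fold of 7.57 against 4.91 in WT and 3.61 in Q418R, the lowest. The strongest one of Klf2, chr8:72348863-72349432, lies inside Eps15l1, 27.2 kb away, with a fold of 8.25 in WT and 6.09 (S354F), 7.03 and 8.43 (R342C) in the mutants. At Klf5 the fold of chr14:99339596-99341017 was 9.49 in WT and 9.13 (R448Q), 10.2 and 11.8 (R342C) in the mutants.

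Esrrb encodes an orphan nuclear receptor that is a direct target of GSK3 inhibition through Tcf7l1. By shared percentile WT ranked above all 9 mutants at 9.69% of all shared regions. Among the strongest putative enhancers of the 10 loci, picked by their strength in WT, it did so only at that of Esrrb. This region, chr12:86338120-86339863, lies 21.3 kb before the gene, with a fold of 13.6 in WT. In the mutants the fold was 6.15 in Q418R, 6.77 in R339Q, 8.03 in R342C, 8.63 in R377H, 9.07 in R448Q, 10.03 in R377C, 10.7 in S354F, 11.2 in K365T and 12.2 in H455R. WT was above all 9, and by shared percentile it stood at 87.5 against 42.6 to 82.4.

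WT also ranked first at weaker regions inside the gene and beside it. It was above all 9 mutants by shared percentile at 6 of the 34 shared regions of Esrrb, against 9.69% of all shared regions, and at 3 of the 140 shared regions of the other loci. Besides the enhancer before the gene, the region 4.1 kb inside it, chr12:86365247-86366215, stood at a shared percentile of 46.4 in WT and 15.4 (R377C) to 35.3 (Q418R) in the mutants. At chr12:86442279-86442691, 78.9 kb from the nearer end, the shared percentile was 47.4 in WT and 12 (R377H) to 32.1 (Q418R) in the mutants. The other 3 were chr12:86385768-86387333, chr12:86462974-86463459 and chr12:86526070-86526851. Not every Esrrb region went this way. The peak over the first listed start, chr12:86360782-86361589, was below all mutants by shared percentile, at 16.9 in WT and 26.9 (H455R), 37.2 and 62.4 (R377H) in the mutants, and 6 of the 34 regions did so in all. The second listed start lies inside chr12:86421237-86422259, where WT (fold 11.5, percentile 90.2) fell inside the mutant range of 82.7 (R339Q) to 92.9 (R342C).

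**Figure D2:**
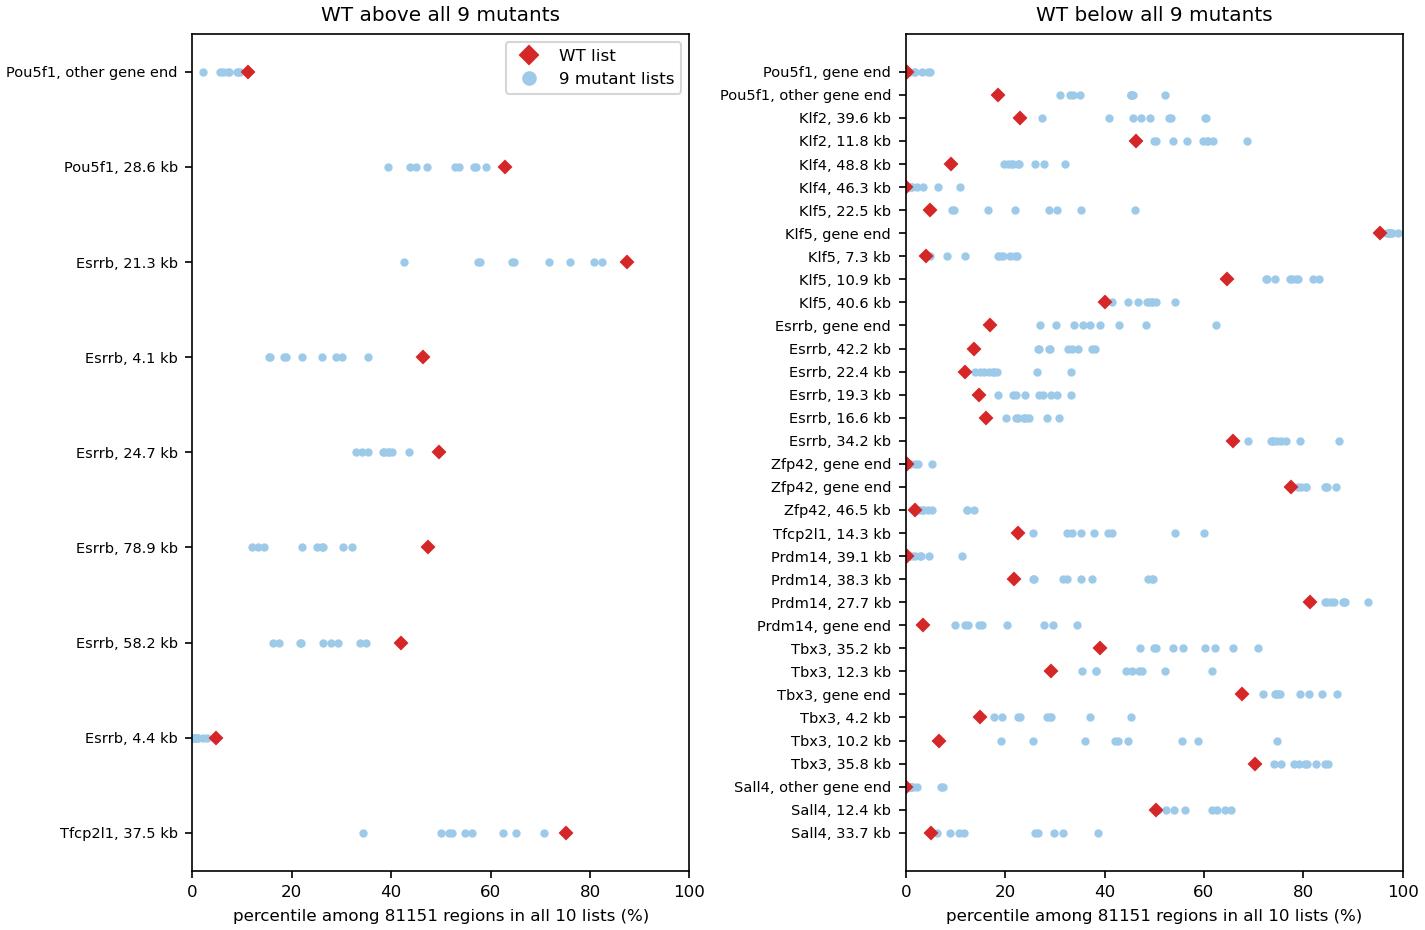
Shared regions at the loci where WT ranked above (left, 9 regions) or below (right, 34 regions) all 9 mutants. The x axis is the percentile among the 81151 regions in all 10 lists (%), the y axis names the gene and the distance to its nearer end, diamonds are WT and circles the 9 mutants. Of the 9 regions on the left 6 belong to Esrrb, and the right side holds regions of every locus.

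Zfp42 encodes Rex1, a zinc finger protein used as a marker of naive cells. Its locus held 5 WT peaks of the strongest 20%, and 2 of them varied little. The peak over the start, chr8:43306772-43307532, had a fold of 11.2 in WT and 10.6 (K365T), 11.6 and 12.5 (R342C) in the mutants. The enhancer chr8:43320455-43321368, 13.4 kb from the gene, had a fold of 16.1 in WT and 15.4 (R377H), 16.5 and 17 (H455R) in the mutants. Over the 10 lists the enhancer's percentile ran from 96.0 to 98.5, the narrowest range among the 10 strongest enhancers. The other 3 strong regions varied more. At chr8:43279287-43279868 the percentile was 81.5 in WT and 48.3 (R448Q), 67.7 and 77.4 (S354F) in the mutants. At chr8:43338530-43338996 it was 83.1 in WT and 59.0 (R342C), 75.8 and 83.8 (H455R) in the mutants. At chr8:43352035-43352738 it was 83.2 in WT and 66.2 (K365T), 75.0 and 78.1 (R377C) in the mutants. By shared percentile WT lay inside the mutants' range at all 3.

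Tfcp2l1 encodes a Grainyhead-family factor downstream of LIF and STAT3. The peak over its start, chr1:118627685-118628467, had a fold of 4.82 in WT and 3.98 (Q418R), 5.53 and 6.48 (R448Q) in the mutants, with Q418R again the only one below WT. Its strongest enhancer, chr1:118733502-118734272, lies 48.3 kb away, with a fold of 11.7 in WT and 8.17 (Q418R), 9.85 and 13.3 (S354F) in the mutants. A region inside Clasp1, chr1:118589295-118590410, ranked above all mutants in WT, with a fold of 10.7 against 6 (H455R) to 9 (S354F). A weaker one, chr1:118720134-118721006, stood at percentile 9.5 in R339Q, while WT stood at 67.5 and R342C at 66.7.

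Prdm14, which represses differentiation and de novo methylation genes, had its strongest WT gene-end peak at chr1:13127888-13128376 with a fold of 5.46 in WT and 4.43 (Q418R), 6.08 and 6.45 (R339Q) in the mutants. Taking the strongest gene-end peak of each list instead, K365T was lowest at percentile 48.7, and Q418R stood at 55.1. Its enhancer chr1:13084628-13085684, 27.7 kb away, had a fold of 11.9 in WT and 12.1 (R377H), 13 and 13.9 (H455R) in the mutants, all above WT in fold. By percentile R448Q (89.5) lay below WT (91.1). Tbx3 encodes a T-box factor and Sall4 a zinc finger partner of Oct4. The Tbx3 peak chr5:119670193-119671197 had a fold of 9.52 in WT and 10.2 (H455R), 10.7 and 11.7 (Q418R) in the mutants. The Sall4 peak chr2:168766681-168767460 had a fold of 6.89 in WT and 6.05 (Q418R), 6.72 and 7.75 (H455R) in the mutants. The Tbx3 fold was higher in every mutant than in WT, while WT lay inside the mutants' range for Sall4.

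The named region in which WT lay furthest under the mutants was also at Tbx3. The region chr5:119694896-119695351, 10.2 kb from the gene, had a fold of 3.74 in WT and 4.4 (Q418R), 6.53 and 10.1 (R377H) in the mutants. WT was below all 9, at percentile 32.9 against 38.8 to 85.9. The strongest Tbx3 enhancer, chr5:119720482-119721868, had a fold of 9.9 in WT and 10.6 (R448Q), 11 and 12.4 (R342C) in the mutants. The strongest Sall4 enhancer, chr2:168790830-168791793, had a fold of 15.5 in WT and 11.3 (K365T), 15.4 and 16.8 (R377C) in the mutants, with K365T apart at percentile 89.0.

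The regions that varied most over the lists stood between percentiles 32.9 and 72.1 in WT, and no single mutant was lowest at all of them. At Klf2 it was chr8:72290703-72291564, 27.5 kb from the gene, at percentile 57.7 in WT and 8.1 (Q418R), 30.9 and 66.6 (R377C) in the mutants. At Klf5 chr14:99277623-99277963 stood at 53.5 in WT and 8.3 (K365T), 38.6 and 60.2 (R342C) in the mutants. At Zfp42 chr8:43264870-43265345 stood at 51.3 in WT and 14.4 (R448Q), 53.6 and 68.0 (H455R) in the mutants. The lowest list was thus a different mutant at each of these 3 loci, but over the 10 loci some mutants recurred. Among the mutants Q418R was lowest by percentile at the most varying regions of Klf2, Klf4, Tbx3 and Sall4, and R339Q at those of Tfcp2l1 and Prdm14. At the Klf2 one R448Q was close, at percentile 8.27 against 8.07 in Q418R. By shared percentile (2.05 against 2.53) and by fold (2.87 against 3.01) R448Q was the lowest there. By shared percentile Q418R was the lowest list at 12.0% of all shared regions and at 9.77% of the 174 at the loci. At Esrrb chr12:86538511-86539247, 16.9 kb past the gene, stood at 72.1 in WT and 23.2 (R377H), 45.2 and 70.6 (R377C) in the mutants. At Prdm14 chr1:13166658-13167116, inside Ncoa2, stood at 62.1 in WT and 21.3 (R339Q), 62.6 and 79.6 (R377H) in the mutants. The Sall4 one, chr2:168741193-168741877, is a gene end of Atp9a, which encodes a membrane transporter, and stood at 63.5 in WT and 27.0 (Q418R), 66.4 and 78.6 (S354F) in the mutants. R377H was thus lowest near Esrrb and highest near Prdm14. At Pou5f1 the widest range was at chr17:35496372-35497409, 8.6 kb before the gene, with 33.4 in WT and 2.0 (S354F), 12.7 and 46.5 (H455R) in the mutants.

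The Pou5f1 locus also held neighbouring regions with opposite ranks. At the end of Tcf19, chr17:35515605-35516570 had a shared percentile of 11.2 in WT and 2.1 (R448Q) to 11.0 (H455R) in the mutants, so WT was highest. The next region, chr17:35516671-35517357, had 18.5 in WT and 31.1 (K365T) to 52.2 (R339Q) in the mutants, so WT was lowest. At chr17:35539336-35540047, 28.6 kb past Pou5f1, WT was highest again with a fold of 8.89, against 6.19 (R448Q), 6.68 and 8.11 (R377C) in the mutants.

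**Figure D3:**
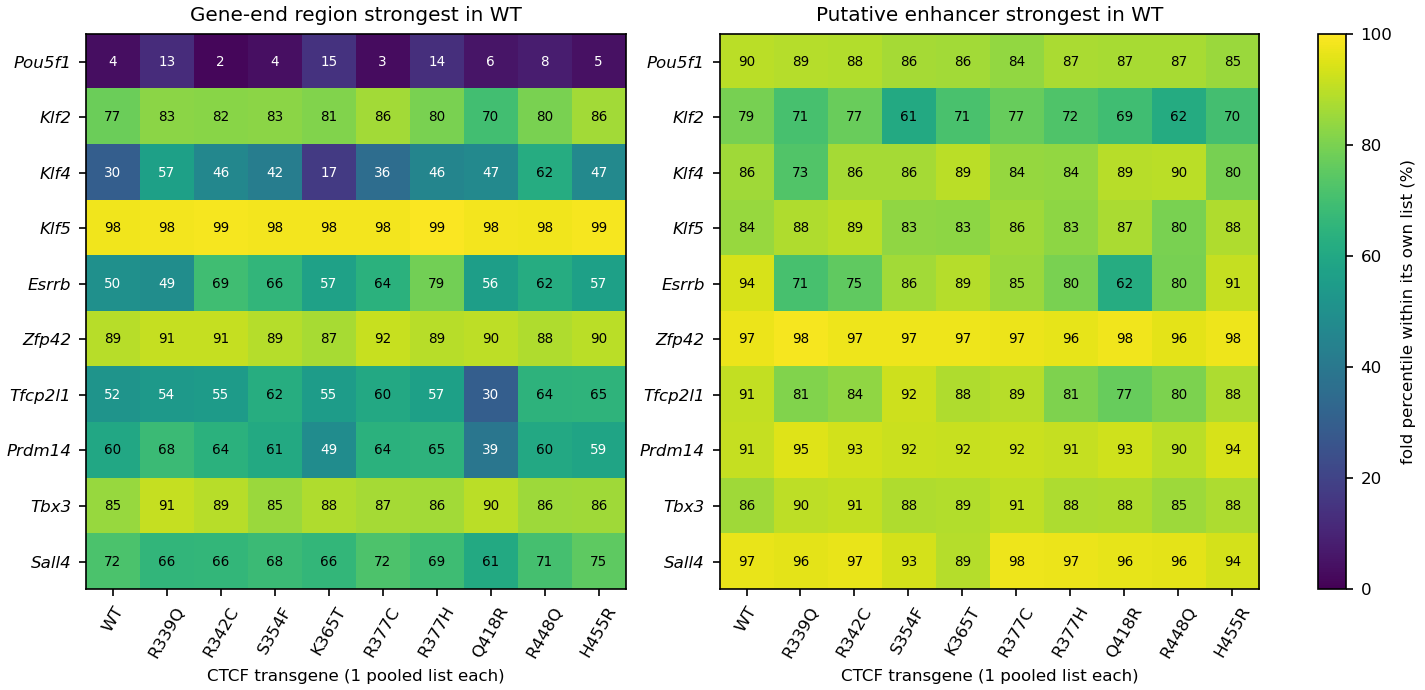
Fold percentile within its own list (%, colour and number) of the gene-end region (left) and the putative enhancer (right) that were strongest in WT at each gene, with the 10 lists as columns. Klf5 and Zfp42 stay high in every list, Q418R is lowest of the mutants in the gene-end regions of Klf2, Tfcp2l1, Prdm14 and Sall4, and the Esrrb enhancer runs from 94.1 in WT to 61.9 in Q418R.

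At full list length the number of WT peaks missing per mutant followed the whole lists. R339Q lacked most, 109 of 324 (33.6%, 95% exact binomial interval 28.5% to 39.1%), against 35.1% of all WT peaks. H455R lacked fewest, 48 (14.8%, interval 11.1% to 19.2%), against 19.3%. Intervals here cover counting error over peaks only. The share was 19.1% in R342C (26.1% of all WT peaks), 19.4% in S354F (24.3%), 23.8% in K365T (28.3%), 17.3% in R377C (20.9%), 22.2% in R377H (26.0%), 24.4% in Q418R (30.8%) and 20.7% in R448Q (27.7%). Loci and whole lists put R339Q, the shortest list, highest and H455R, the longest mutant list, lowest. At the loci this order moved with list length. In lists cut to equal length R339Q lacked 13.8%, R448Q was highest at 19.6% and Q418R lowest at 7.41%. Over all WT peaks at equal length R339Q stayed highest at 21.6%. There R448Q lacked 21.4% and Q418R 18.9%, and R377C was lowest at 15.6%. In all 9 mutants the loci lacked a smaller share than the whole list, also at equal length. With the stronger 50% of each list the direction turned in 7 of 9, all but R342C and S354F. Summed over mutants, 633 of 2916 pairs of a WT peak and a mutant were missing (21.7%). WT peaks of equal width lacked 24.7% genome-wide, those of equal fold and width 29.4%, and those of equal fold 34.7%.

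Split by position, the member gene ends had a smaller share of missing pairs than the putative enhancers, by a margin that moved with the setting. For the 20 member gene-end peaks 28 of 180 pairs were missing (15.6%), against 13.1% at all gene ends, and for the 293 putative enhancers 596 of 2637 (22.6%), against 28.5% of all other WT peaks. Without the members on chromosomes with a shifted share of peaks, 20.4% of gene-end pairs and 21.9% of enhancer pairs were missing. With a gene-end window of 2 kb the shares were 19.2% and 22.3%. The gap was wider with the stronger 50% of each list (5.56% against 28.2%) and at equal length (4.44% against 13.0%). The 180 gene-end pairs are 20 peaks counted in 9 mutants, so they are not independent. By locus the share of pairs missing ran from 19.4% (Zfp42) to 26.3% (Prdm14). Altogether 13 WT peaks were missing from all 9 mutants (5.42% of all WT peaks were), and 12 of them were below percentile 20. The exception was chr8:72281815-72282060, 37.0 kb from Klf2, at percentile 47.8. The next strongest were chr2:168732469-168732677 in Atp9a near Sall4 at percentile 16.4, chr1:13172663-13172949 in Ncoa2 near Prdm14 at 11.5, chr12:86552654-86552950 near Esrrb at 9.35 and chr1:118656551-118656750 in Tfcp2l1 at 6.12.

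Mutant peaks without a WT partner were few and weak. They numbered 175 of 2509 locus peaks over the 9 mutants (6.97%), against 10.5% in the whole lists. With the stronger 50% of each list the order turned, with 11.0% at the loci against 10.2%. Counts per mutant in the uncut lists follow, with the share of its locus peaks and then the share over its whole list. They were 8 in R339Q (3.51%, 7.14%), 11 in R342C (3.96%, 9.77%) and 14 in S354F (5.13%, 8.82%). K365T had 13 (4.85%, 8.94%), R377C 29 (9.54%, 10.8%) and R377H 22 (7.89%, 12.1%). Q418R had 16 (6.04%, 7.97%), R448Q 31 (10.4%, 14.8%) and H455R 31 (9.84%, 13.1%). Of the 91 merged regions without WT, 58 were in 1 mutant only and none in all 9. The same shares over all regions are not given here, so these counts do not set the loci apart. Regions without WT in 5 or more mutants were 4 of the 398 at the loci, against 5886 of all 222457 (2.65%). The most widely shared were chr4:55546962-55547652 near Klf4 and chr17:35546630-35547021 in Cdsn near Pou5f1, each in 7 mutants, at median percentiles of 22.7 and 8.38. The other 2 were chr2:168810709-168810987 near Sall4 and chr8:72326349-72326791 near Klf2, each in 5. The highest single value was percentile 71.0 in H455R, at chr8:43256688-43257023 near Zfp42.

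**Figure D4:**
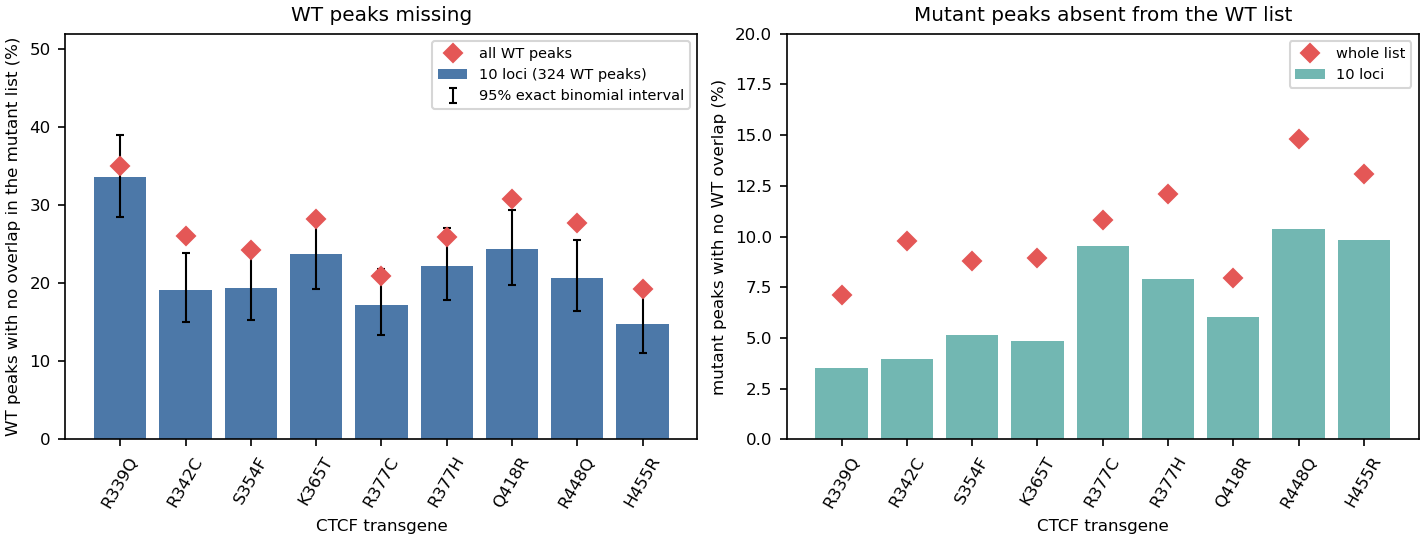
Left, WT peaks with no overlap in a mutant list (%), with bars for the 324 locus peaks, 95% exact binomial intervals over peaks and diamonds for all WT peaks. Right, mutant peaks with no WT overlap (%), with bars for the loci and diamonds for the whole list. The loci lie under the whole list in all 9 mutants on both sides, with R339Q highest on the left at 33.6% and lowest on the right at 3.51%.

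Among the 174 locus regions in all 10 lists (43.7% of 398, against 36.5% of all regions), WT ranked below all 9 mutants at 34 (19.5%), against 12.7% of all shared regions. An extreme position was not particular to WT. R339Q ranked above all other lists at 43 of the 174 (24.7%), against 14.9% of all shared regions. R448Q was the lowest list at 10.9% of the 174 and at 14.0% of all shared regions. At member gene ends WT was lowest at 7 of 13 regions, against 22.8% of shared regions at all gene ends and 10.3% of other shared regions. They were, by shared percentile, the end peaks of Klf5, Esrrb, Tbx3 and Zfp42 described above, the region before Pou5f1, a second one at Prdm14 (chr1:13126969-13127497) and one at the far end of Zfp42 (chr8:43294267-43295008). Some margins were small: WT stood at 77.56 against 77.61 (K365T) at the Zfp42 start and at 0.285 against 0.339 (R342C) before Pou5f1. At Klf5 it stood at 95.3 against 95.9 (R448Q). By percentile within each list, some mutant lay below WT at these regions and at the Esrrb one, but none at the Tbx3 one. In every mutant more than 50% of the 174 regions ranked above WT, from 55.2% (R377H) to 62.6% (Q418R), against 51.5% (R377C) to 53.7% (R339Q) of all shared regions. Crowding of peaks moved with this. Genome-wide the share of regions with WT lowest was 8.63% where up to 10% of the surrounding 10 kb lay in WT peaks, 14.0% from there to 20%, 21.3% to 30% and 23.0% above. In the same coverage classes the loci had WT lowest at 13.0% (3 of 23), 16.7% (18 of 108), 30.8% (12 of 39) and 25% (1 of 4). These shares lay above those of all shared regions in each class, with few regions in some. The loci had a median of 15.8% covered, against 11.9% for all shared regions. The part of crowding in the result was not tested beyond this comparison, which the plot of rank against coverage shows.

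**Figure D5:**
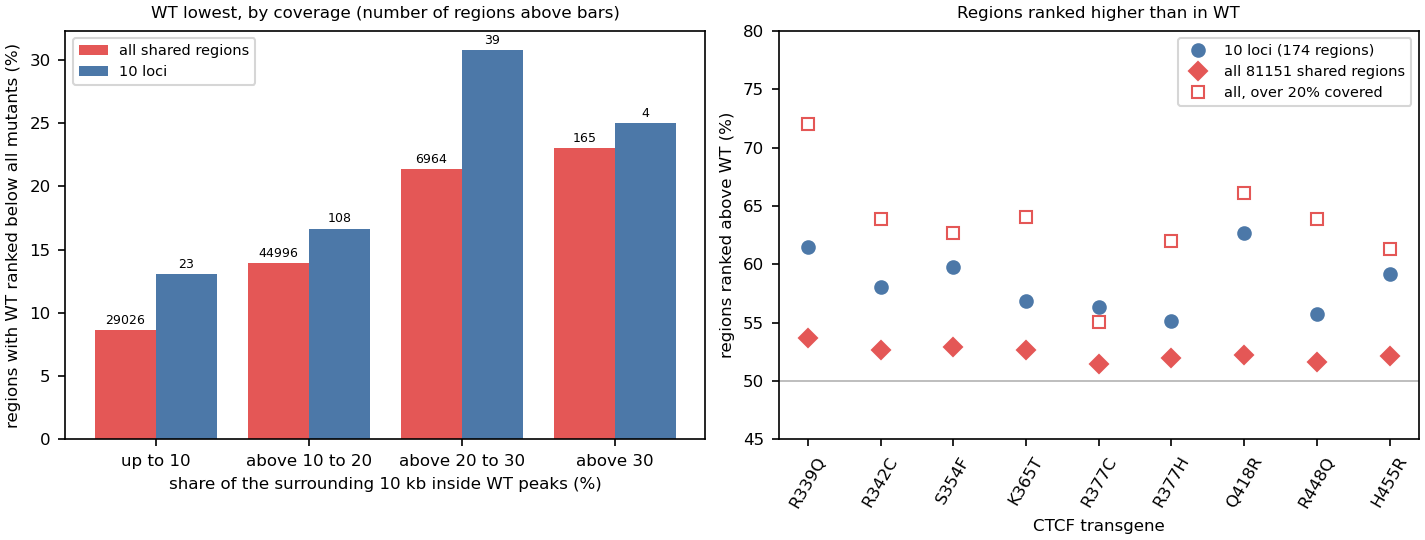
Left, share of shared regions with WT ranked below all mutants (%) by the share of the surrounding 10 kb inside WT peaks, for all shared regions and the 10 loci, with the number of regions above each bar. Right, share of shared regions ranked above WT in each mutant (%) for the loci, for all shared regions and for those with over 20% covered. The loci lie above all shared regions in every mutant, and in 8 of 9 below the crowded regions.

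Other genes of the pluripotency network were counted in the same way. Of 18 further naive and general pluripotency genes, among them Nanog and Sox2, the WT list held a gene-end peak for 16 and the mutant lists for 15 to 17, and 24.5% of the pairs at their loci were missing. Of 8 formative and primed genes, such as Otx2 and Fgf5, 7 had one in WT and 6 to 7 in the mutants, with 19.4% of pairs missing. All 8 genes of the LIF and STAT3 pathway had one in every list, with 414 of 2070 pairs missing (20%). The 21.7% at the 10 member loci lay between these lists. Genome-wide, WT peaks of equal fold and width lacked 29.4% for the members and 27.8% for the 18 further genes. For the formative and primed genes this was 21.9%, and for the LIF and STAT3 genes 27.9%. The lists thus differ in the strength and width of their peaks. Stat3 stands in both the first and the last list.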

How the data were processed

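The authors called peaks with MACS2 after Trim Galore and Bowtie2 on mm10, and the notes also name deepTools, per the submitters' processing notes. They deposited 1 list per genotype that pools 2 replicates, with a ratio per peak that was read from its steps as a fold enrichment. Thresholds, insertion shifts, duplicates and versions are given by no source used here. Planned reads were 50 M pairs of 150 bp from 50000 cells per sample, per the labels' protocols.

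Peaks were compared by overlap of at least 1 bp and by rank, with Python 3.11.15, pandas 2.3.3, numpy 2.4.6 and scipy 1.17.1, and positions are 1-based. A merged region has the position class of its strongest WT peak. Overlap counting was checked on simulated lists. Genes and promoters came from RefSeq tables of GRCm38.p6. The background coverage c was taken as 1/step minus 1, since fold values lie on steps of 1/(c + 1) in 28.9% to 33.8% of peaks.

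The members and gene lists were chosen with earlier results of these data known. The peaks named are, per locus, the strongest WT gene-end peak, the strongest putative enhancer and the shared region with the widest range of percentiles, then peaks missing from all 9 mutants and regions without WT in 5 or more. Others were named after their values were seen, among them the regions where WT ranked above all mutants. Comparisons at equal fold (20 bins), equal width (20 bins) and both (10 by 10) were added after seeing the data, as was coverage of the surrounding 10 kb. There was no test, since each group has 1 list.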

Additional observations from a re-analysis of the deposited data

How the results depend on the processing

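No paired analysis was possible because each list pools both replicates, and for the same reason no replicate could be left out. An overlap of 50% of the shorter peak, gene-end windows of 500 bp and 2 kb, and leaving out the 4 members on chromosomes 1 and 8 moved no percentage out of its 95% interval. For shares of pairs that interval takes pairs as independent, which they are not. Leaving out the 4 members brought gene-end pairs missing to 20.4% and enhancer pairs to 21.9%, close to each other. With a flank of 20 kb 20.9% of enhancer pairs were missing, and with 100 kb 8.98% of mutant peaks had no WT overlap. With the stronger 50% of each list, 47.9% of WT locus peaks were found in all 9 mutants (50.0% of all WT peaks), and missing shares were 31.4% in K365T, 29.8% in Q418R, 28.9% in R448Q and 22.3% in H455R, 5.56% of gene-end pairs and 28.2% of enhancer pairs, with 11.0% of mutant peaks without WT (10.2% in the whole lists). There the loci lacked more than the whole lists in 7 of 9 mutants: 31.4% against 26.2% in K365T, 38.0% against 33.9% in R339Q, 22.3% against 18.6% in H455R, and by under 1 percentage point in R377C, R377H, Q418R and R448Q. With lists of equal length, which kept 58.3% of the locus WT peaks and 70.5% of all, 64.0% were found in all 9 (58.6% of all), and missing shares were 13.8% in R339Q, 9.52% in R342C and in S354F, 13.2% in K365T, 12.7% in R377H, 7.41% in Q418R and 11.1% in H455R, 4.44% of gene-end pairs and 13.0% of enhancer pairs, with 15.8% of mutant peaks without WT. R448Q (19.6%) was then the mutant with most missing at the loci, and Q418R the one with fewest, while over all WT peaks R339Q stayed highest at 21.6%. The cause of these moves beyond the fewer peaks kept was not tested. Over the 20 strongest gene-end and enhancer peaks, the median of WT minus the mutants' median was -0.73 percentile points, -4.06 by shared percentile and, over the 19 with a value, -3.46 in lists of equal length. Both Sall4 peaks changed sign, to -3.15 (gene end) and -1.16 (enhancer) by shared percentile and to -3.46 and -0.782 with equal length. The part of depth in the weak peaks, among them the one over the Pou5f1 start, was not tested, and a missing peak is one not listed, not closed chromatin.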
